A study of Mus musculus with 12 samples.

Results

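The genes described here are 10 members of the interleukin-1 family and of the inflammasome, taken by their gene symbols from 18929 genes listed in gene counts of murine jejunal enteroids. Enteroids are budding epithelial cultures grown from intestinal crypts. The genes are the ligands Il18 and Il33, the receptor antagonist Il1rn, the receptor chains Il1r1 and Il1rap, the sensor Nlrp6, the adaptor Pycard, the inflammatory caspases Casp1 and Casp4, and the pore-forming Gsdmd. The control enteroids are described in places as villin-Cre and in others as wild type, and the Hdac1-deficient and Hdac2-deficient enteroids came from mice in which villin-Cre had deleted floxed Hdac1 or Hdac2, on a mixed C57BL/6 J, 129SV and CD1 background. The villin promoter drives Cre in the intestinal epithelium. HDAC1 and HDAC2 are class I deacetylases that remove acetyl marks from histones and other proteins. All enteroids had grown for 5 days in ENR medium, and 4 libraries were sequenced per group. The crypts are described as coming from 1 mouse of each kind, so p-values measure the spread between libraries that may be technical, and genotype cannot be told apart from mouse, strain mixture and enteroid line.

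Interleukin-1 family cytokines are alarm signals of barrier tissues. Several of them, including interleukin-18, are made as inactive precursors. An inflammasome forms when a sensor such as NLRP6 recruits the adaptor ASC, the product of Pycard, which in turn brings caspase-1 molecules together. Active caspase-1 cleaves the interleukin-18 precursor and gasdermin D, the product of Gsdmd, and gasdermin D fragments then open pores in the cell membrane. Caspase-4 of the mouse, also called caspase-11, senses cytosolic lipopolysaccharide and cleaves gasdermin D as well. Interleukin-18 from the intestinal epithelium is known for its part in epithelial repair and antimicrobial defence, and interleukin-33 is stored in nuclei and released upon cell damage. Messenger RNA levels, as measured here, say nothing of cleavage or release.

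Libraries held 20693200 to 30658628 counts. Levels are given in CPM, which scales each library to the same total. Control enteroids had 90.5 ± 2.87 CPM of Hdac1 (mean ± SD, n = 4), against 4.23 ± 0.841 CPM upon Hdac1 deletion and 75.3 ± 4.41 CPM upon Hdac2 deletion. Hdac2 was at 137, 112 and 75.9 CPM in the same order, so Hdac2 reads remained in the libraries labelled Hdac2-deficient. Counts over the whole gene do not show whether a floxed exon was lost. The study reported the deletion of Hdac1 or Hdac2 in RNA and protein of the respective cultures, by RT-PCR, Western blot and immunofluorescence. The summed level of 7 epithelial markers was between 5060 and 6541 CPM in all libraries, while the summed level of a 10-gene leukocyte list stayed between 2.18 and 5.59 CPM. Cd3e, Cd79a, Adgre1 and Itgax of that list were not among the listed genes.

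Promoter sequence is shown for Il18, Il1rn and Nlrp6, because Il18 had the largest rise in both mutants among the members with reads in every library, and Il1rn and Nlrp6 moved in opposite directions in the mutants. Each window runs from 250 bases before to 50 bases after a RefSeq start site on GRCm38.p6, 5′ to 3′ on the strand of the gene. Il18 (chr9:50554450-50554749, plus strand), Il1rn at its upstream start (chr2:24336610-24336909, plus strand) and Nlrp6 (chr7:140920652-140920951, plus strand) are printed, with capitals marking matches to the motifs searched.
Il18: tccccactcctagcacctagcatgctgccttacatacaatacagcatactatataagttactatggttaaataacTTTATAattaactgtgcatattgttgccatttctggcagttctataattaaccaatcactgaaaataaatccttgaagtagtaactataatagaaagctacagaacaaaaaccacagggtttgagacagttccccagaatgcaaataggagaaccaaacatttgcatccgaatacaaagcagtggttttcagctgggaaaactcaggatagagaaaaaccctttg
Il1rn: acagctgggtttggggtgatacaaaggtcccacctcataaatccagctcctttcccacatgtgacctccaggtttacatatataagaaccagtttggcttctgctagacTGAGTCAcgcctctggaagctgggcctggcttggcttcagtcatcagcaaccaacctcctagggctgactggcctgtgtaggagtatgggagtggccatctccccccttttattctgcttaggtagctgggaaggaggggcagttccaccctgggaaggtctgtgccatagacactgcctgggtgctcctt
Nlrp6: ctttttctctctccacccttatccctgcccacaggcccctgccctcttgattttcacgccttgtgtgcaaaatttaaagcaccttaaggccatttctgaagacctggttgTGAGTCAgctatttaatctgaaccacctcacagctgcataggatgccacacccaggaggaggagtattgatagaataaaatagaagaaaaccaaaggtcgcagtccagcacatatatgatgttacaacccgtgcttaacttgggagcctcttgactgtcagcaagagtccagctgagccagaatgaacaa
The Il18 window had 1 CpG and 36.7% GC, against medians of 7 CpG and 52.7% GC over 32851 RefSeq promoters. Its capitals mark TATAAA read on the opposite strand, a match that 13.6% of all promoters hold. The capitals in Il1rn and Nlrp6 mark the AP-1 motif TGANTCA, which begins 141 bases before the Il1rn start and 140 bases before the Nlrp6 start. That motif stood in 7.81% of all promoters and, among the 14 windows of 9 members, only in these 2. The search covered both strands and also used the STAT motif TTCNNNGAA, the IRF motif GAAANNGAA, the kappaB motif GGGNNTTCC and the E-box CACGTG. The STAT motif was in 8.30% of all promoters and in no member window. The IRF motif stood in the Il1rap window (8.56% of all), the E-box in the Casp1 window (7.15%), and the kappaB motif (5.82%) in both overlapping Casp4 windows and in 1 of 2 Il1r1 windows. Other TATAAA matches lay in both Il33 windows and in 1 downstream window of Il1rn. These matches are letters in a window and no measure of binding.

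Among the members, Il18 and Il33 rose strongly in both mutants, Il1rn fell in Hdac1-deficient and rose in Hdac2-deficient enteroids, and the inflammasome genes moved by less than 2-fold. Against control, 6 of the 9 members with counts in every control library rose and 3 fell in Hdac1-deficient enteroids at an adjusted p of at most 0.05, while 64.6% of all 14246 tested genes passed the same limit (32.7% rose and 31.9% fell). Il1r1 is left out of these counts, since with no count in control it could pass the filter only by being higher in the mutant. With a fold change above 2 as well, 2 members rose and 1 fell, against 10.6% of tested genes (6.87% and 3.71%). In Hdac2-deficient enteroids 8 of the same 9 members rose, none fell and Il1rap did not pass, against 62.3% of all 14007 tested genes (31.4% rose and 30.9% fell). With a fold change above 2, 3 members rose and none fell, against 8.30% of tested genes (5.45% and 2.84%). The 9 members had a median log2 fold change of 0.45 upon Hdac1 deletion and 0.29 upon Hdac2 deletion, beside medians within 0.01 of 0 over all tested genes. Both comparisons use the same 4 control libraries. In each of them the libraries of the mutant and of control did not overlap for 8 of these 9 members, against 58.5% of genes for Hdac1 and 56.1% for Hdac2.

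**Figure D1:**
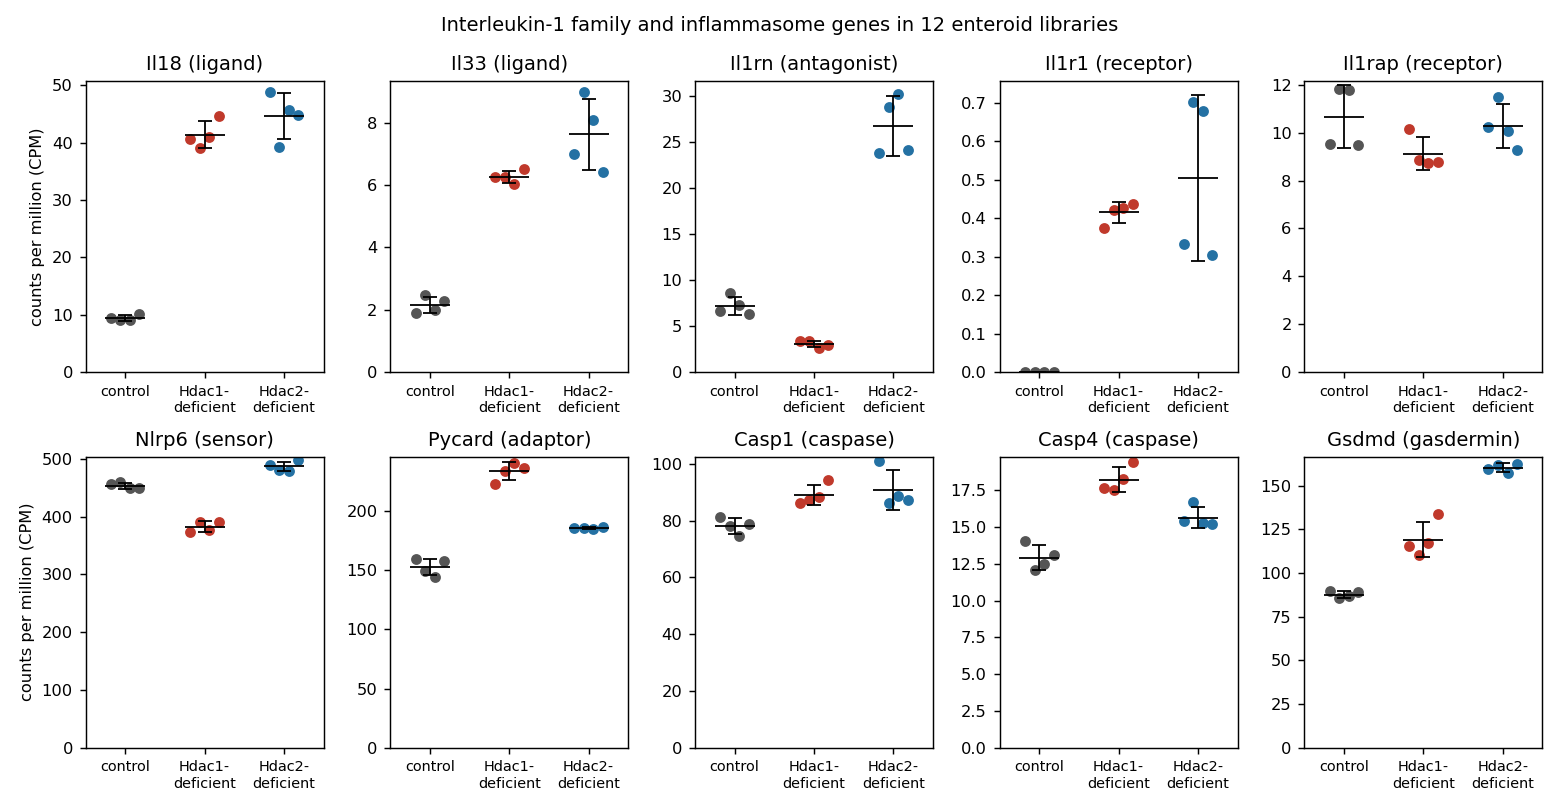
Level of each member in CPM (vertical axes, starting at 0) in control, Hdac1-deficient and Hdac2-deficient enteroids; each point is 1 library, and the bar and whiskers are the mean ± SD of 4 libraries. Il18 sits near 9 CPM in control and between 39.1 and 48.8 CPM in both mutants, while Il1rn is lowest in Hdac1-deficient and highest in Hdac2-deficient libraries.

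Il18 (ENSMUSG00000039217, chr9:50554827-50581840, plus strand, GENCODE M21 on GRCm38), which encodes interleukin-18, was at 9.45, 9.01, 9.02 and 10.1 CPM in the control libraries. It was at 40.6, 39.1, 41.1 and 44.7 CPM in Hdac1-deficient and at 48.8, 39.2, 45.7 and 44.8 CPM in Hdac2-deficient libraries. Every mutant library was above every control library, and the mutants overlapped. The log2 fold change was 2.15 ± 0.06 (SE) in Hdac1-deficient enteroids (edgeR quasi-likelihood test, adjusted p = 7.1e-17), a 4.45-fold rise. In Hdac2-deficient enteroids it was 2.26 ± 0.07 (adjusted p = 8.9e-17), a 4.79-fold rise. The difference between the mutants on the log2 scale was -0.11, with a 95% confidence interval from -0.222 to 0.00423, and did not pass (adjusted p = 0.11). It passed when Hdac1-deficient library 4 (-0.15, adjusted p = 0.036) or Hdac2-deficient library 2 (-0.17, adjusted p = 0.011) was left out.

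Il18 overlaps Bco2 and Tex12, genes of the opposite strand that share no exon base with it. The counting was not stated to use strand. Bco2 had 244 to 393 counts in control, 1332 to 1582 in Hdac1-deficient and 400 to 617 in Hdac2-deficient libraries, lowest in control as was Il18. The part of its reads in the Il18 counts was not tested. The study's quantitative PCR primers for Il18 are shown because they read a part of what the gene count sums.
Il18 forward primer: gcctcaaaccttccaaatca
Il18 reverse primer: tggatccatttcctcaaagg
Both primers matched in full only 1 of 4 annotated Il18 transcripts. The forward primer lies in its exon 1 (chr9:50565491-50565510) and the reverse primer spans exons 5 and 6, for a product of 407 bases. That exon 1 lies downstream of the printed Il18 window, so this transcript has another annotated start. The counts do not separate the starts. The study reported increased Il18 expression by quantitative PCR. The counts used here are summed over all Il18 transcripts, so these primers and the counts do not measure the same set.

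Il33 (ENSMUSG00000024810, chr19:29925114-29960718, plus strand) encodes interleukin-33. It was low in control, at 1.91, 2.46, 1.98 and 2.27 CPM, or 54 to 70 counts per library. It was at 6.26, 6.25, 6.04 and 6.51 CPM in Hdac1-deficient and at 6.999, 8.98, 8.09 and 6.42 CPM in Hdac2-deficient libraries. All mutant libraries exceeded all control libraries, and the Hdac2-deficient libraries spread more widely than the Hdac1-deficient libraries, with a CV of 14.98% against 3.03%. Il33 rose by 1.55 ± 0.11 on the log2 scale in Hdac1-deficient (edgeR adjusted p = 1.5e-10) and by 1.84 ± 0.13 in Hdac2-deficient enteroids (adjusted p = 6.1e-11). The mutants differed by -0.28 ± 0.10 (adjusted p = 0.020). That call was lost without Hdac1-deficient library 3 (-0.27, adjusted p = 0.051), Hdac2-deficient library 2 (-0.19, adjusted p = 0.14) or Hdac2-deficient library 3 (-0.26, adjusted p = 0.058). Il1rl1, the receptor of interleukin-33, was not among the listed genes.

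Il1rn (ENSMUSG00000026981, chr2:24336853-24351494, plus strand) encodes the interleukin-1 receptor antagonist, which occupies the receptor without signalling. It was at 6.60, 8.58, 7.30 and 6.30 CPM in control, at 3.34, 3.37, 2.56 and 2.94 CPM in Hdac1-deficient and at 23.9, 28.9, 30.3 and 24.2 CPM in Hdac2-deficient libraries. No 2 groups overlapped. Il1rn fell by 1.23 ± 0.12 on the log2 scale in Hdac1-deficient (edgeR adjusted p = 1.9e-08) and rose by 1.90 ± 0.10 in Hdac2-deficient enteroids (adjusted p = 6.6e-10). The direct difference between the mutants was -3.13 ± 0.11 (adjusted p = 7.1e-16). It was the member with the largest difference between the mutants, and the only member whose difference exceeded 2-fold, against 5.62% of all 14510 tested genes (2.74% higher and 2.89% lower in Hdac1-deficient enteroids). The counts do not separate the upstream start, whose window is printed, from the 2 downstream RefSeq starts. Over the 12 libraries, the genes whose log2 CPM followed Il1rn most closely were Slc11a2 (Pearson r = 0.993), which encodes an iron transporter, Hk1 (0.992), a hexokinase, and Car2 (0.992), a carbonic anhydrase. These correlations describe 3 groups of 4 libraries.

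Il1r1 (ENSMUSG00000026072, chr1:40225080-40317257, plus strand), the signalling receptor chain for interleukin-1, had no count in any control library. It had 10, 13, 13 and 12 counts in Hdac1-deficient and 9, 18, 14 and 7 counts in Hdac2-deficient libraries. Set against 3 counts in the shallowest control library, the mean level was at least 3.28-fold higher upon Hdac1 deletion and at least 3.99-fold higher upon Hdac2 deletion. In the Hdac1 comparison it passed the filter on low counts through the mutant libraries alone, so its p is not given, and in the Hdac2 comparison it did not pass the filter. The mutants differed by -0.26 with an interval from -0.944 to 0.423 on the log2 scale, which does not exclude a difference of either sign.

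Il1rap (ENSMUSG00000022514, chr16:26581704-26730117, plus strand), the accessory chain shared by the receptors for interleukin-1 and interleukin-33, was at 9.55, 11.8, 11.8 and 9.49 CPM in control. It was at 10.2, 8.84, 8.74 and 8.76 CPM in Hdac1-deficient and at 10.2, 11.5, 10.1 and 9.28 CPM in Hdac2-deficient libraries. All 3 groups overlapped. The log2 fold change was -0.22 ± 0.09 in Hdac1-deficient enteroids (edgeR adjusted p = 0.034). This call was lost with DESeq2 (adjusted p = 0.060), without control library 2 (-0.17, adjusted p = 0.12) or 3 (-0.17, adjusted p = 0.12), and without Hdac1-deficient library 2 (-0.20, adjusted p = 0.074), 3 (-0.20, adjusted p = 0.086) or 4 (-0.20, adjusted p = 0.078). In Hdac2-deficient enteroids the change was -0.05 with an interval from -0.23 to 0.139 (adjusted p = 0.67).

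Nlrp6 (ENSMUSG00000038745, chr7:140920902-140929192, plus strand) encodes an inflammasome sensor known for its expression in the intestinal epithelium. It was the member with the highest CPM, and the highest level per length of the annotated principal transcript, in every group. Control libraries were at 456, 459.7, 449 and 449 CPM, Hdac1-deficient libraries at 373, 391, 376 and 390.4 CPM, and Hdac2-deficient libraries at 488, 481, 479.5 and 497 CPM. The groups did not overlap, with Hdac1-deficient libraries lowest and Hdac2-deficient libraries highest. Nlrp6 fell by 0.23 ± 0.03 on the log2 scale in Hdac1-deficient (edgeR adjusted p = 1.6e-06) and rose by 0.11 ± 0.03 in Hdac2-deficient enteroids (adjusted p = 0.0013), and the mutants differed by -0.35 ± 0.03 (adjusted p = 1.2e-10). Both changes were below 1.2-fold. The genes most alike over the 12 libraries were 9030617O03Rik, Serinc2 and Tfrc, the transferrin receptor gene, each with a Pearson r of 0.989.

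Pycard (ENSMUSG00000030793, chr7:127989708-127993867, minus strand), which encodes the adaptor ASC, was at 159, 149, 144 and 157 CPM in control. It was at 223, 234, 240.4 and 236 CPM in Hdac1-deficient and at 185, 186, 185 and 186 CPM in Hdac2-deficient libraries. The 3 groups did not overlap, and the Hdac1-deficient libraries were highest. Pycard rose by 0.63 ± 0.04 on the log2 scale in Hdac1-deficient (edgeR adjusted p = 7.6e-12) and by 0.29 ± 0.03 in Hdac2-deficient enteroids (adjusted p = 6.7e-08), and the mutants differed by 0.33 ± 0.03 (adjusted p = 3.7e-09). It shares 485 exon bases with Gm45205 on the opposite strand, which had 14 to 56 counts per library beside 3745 to 7319 for Pycard.

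Casp1 (ENSMUSG00000025888, chr9:5298517-5307265) and Casp4 (ENSMUSG00000033538, chr9:5308828-5336783) are neighbours on the plus strand of chromosome 9. Casp1 encodes caspase-1, the protease that processes interleukin-18. It was at 81.3, 78.2, 74.6 and 78.7 CPM in control, at 86.1, 87.3, 88.4 and 94.3 CPM in Hdac1-deficient and at 101, 86.3, 88.7 and 87.2 CPM in Hdac2-deficient libraries. Mutant libraries were all above control libraries, by a small margin, and the mutants overlapped. Casp1 rose by 0.20 ± 0.04 on the log2 scale in Hdac1-deficient (edgeR adjusted p = 1.7e-04) and by 0.23 ± 0.05 in Hdac2-deficient enteroids (adjusted p = 2.3e-04). The difference between the mutants, -0.03, had an interval from -0.123 to 0.0613.

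Casp4 encodes caspase-11. It was at 14.1, 12.1, 12.5 and 13.1 CPM in control, at 17.7, 17.5, 18.3 and 19.4 CPM in Hdac1-deficient and at 15.4, 16.7, 15.3 and 15.2 CPM in Hdac2-deficient libraries. The 3 groups did not overlap. Casp4 rose by 0.51 ± 0.06 on the log2 scale in Hdac1-deficient (edgeR adjusted p = 6.7e-07) and by 0.29 ± 0.06 in Hdac2-deficient enteroids (adjusted p = 6.2e-04), with a difference of 0.22 ± 0.06 between the mutants (adjusted p = 0.0046).

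Gsdmd (ENSMUSG00000022575, chr15:75862327-75867408, plus strand), which encodes gasdermin D, was at 89.7, 85.4, 86.6 and 89.0 CPM in control. It was at 115, 110.4, 117 and 133 CPM in Hdac1-deficient and at 159.7, 162, 157 and 162 CPM in Hdac2-deficient libraries. The order control, Hdac1-deficient, Hdac2-deficient held with no overlap. Gsdmd rose by 0.45 ± 0.05 on the log2 scale in Hdac1-deficient (edgeR adjusted p = 9.0e-08) and by 0.88 ± 0.03 in Hdac2-deficient enteroids (adjusted p = 5.9e-16), and the mutants differed by -0.43 ± 0.04 (adjusted p = 6.0e-09). The genes that followed Gsdmd most closely over the 12 libraries were Clec2e (Pearson r = 0.995), Cnn2 (0.993) and Lgals3 (0.992), which encodes galectin-3.

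Compared directly, 6 of 10 members differed between the mutants, against 45.9% of all tested genes (22.3% higher and 23.7% lower in Hdac1-deficient enteroids). Pycard and Casp4 were higher in Hdac1-deficient enteroids, and Il33, Il1rn, Nlrp6 and Gsdmd were higher in Hdac2-deficient enteroids. For 5 members the libraries of the mutants did not overlap, against 41.8% of genes. The median difference of the 10 members was -0.22 on the log2 scale, beside 0.01 over all tested genes.

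**Figure D2:**
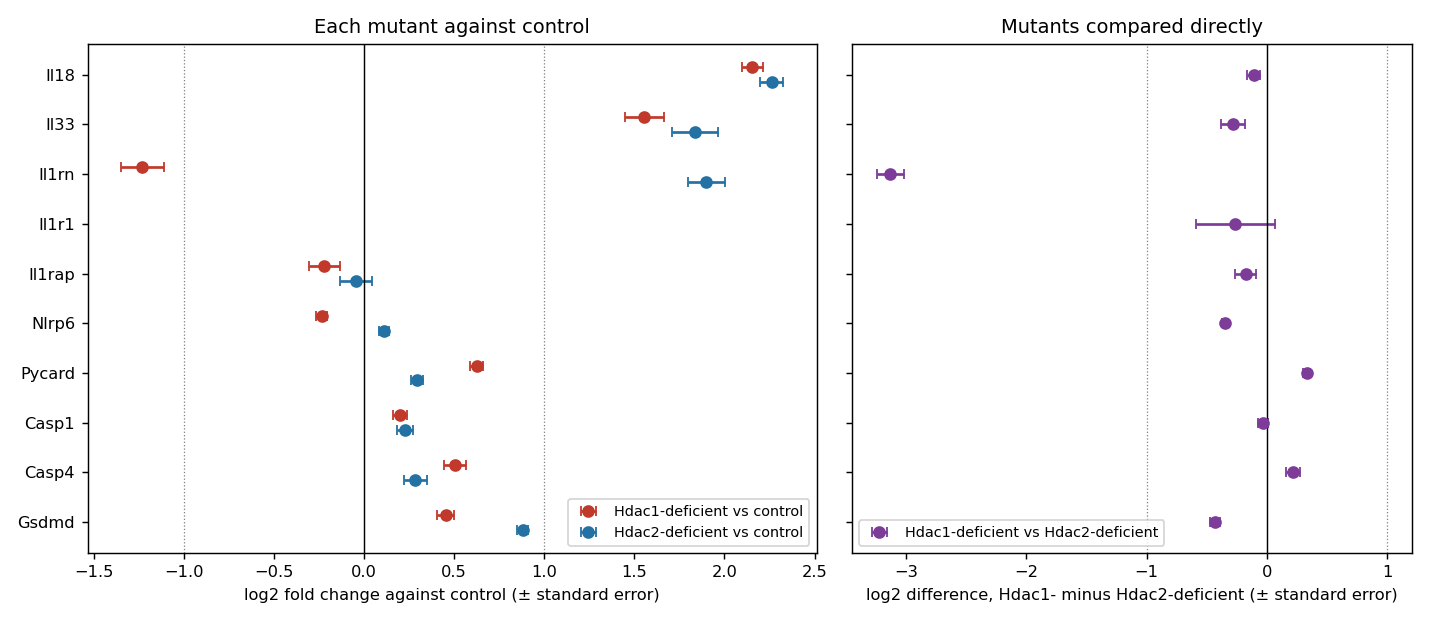
Log2 fold change of each member against control (left) and log2 difference between the mutants (right), with standard errors; dotted lines mark a 2-fold change. Il18 and Il33 lie right of the 2-fold line in both mutants, Il1rn lies beyond it on opposite sides, and Il1r1, with no control count, is drawn only on the right.

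Per kilobase of the principal annotated transcript, Nlrp6 was highest in control enteroids, at 102.2 ± 1.20 CPM per kb, and ranked 774 of 13883 genes with a transcript length. Casp1 followed at 52.2 ± 1.83 CPM per kb and Gsdmd at 48.9 ± 1.13 CPM per kb, whose libraries overlapped. Pycard was at 40.1, Il18 at 12.02 and Casp4 at 9.01 CPM per kb, each separated from the next. The Pycard level rests on an annotated principal transcript of 3800 bases, and a shorter transcript would raise it and could change its place in this order. Il1rn (2.91) and Il1rap (2.36) overlapped, Il33 was at 0.848 CPM per kb, and Il1r1 had no count. Interleukin-18, its adaptor and its protease were thus all read at some level in control enteroids, with the cytokine the lowest of them. In Hdac1-deficient enteroids Il18 reached 53.0 ± 3.04 CPM per kb, below Casp1 (59.5 ± 2.45) without overlap. In Hdac2-deficient enteroids it reached 57.1 ± 5.13 CPM per kb and overlapped Casp1 (60.7 ± 4.66). Il1rn stood between Il1rap and Il1r1 in Hdac1-deficient enteroids (1.23 CPM per kb) and at the level of Casp4 in Hdac2-deficient enteroids (10.8 beside 10.9 CPM per kb).

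**Figure D3:**
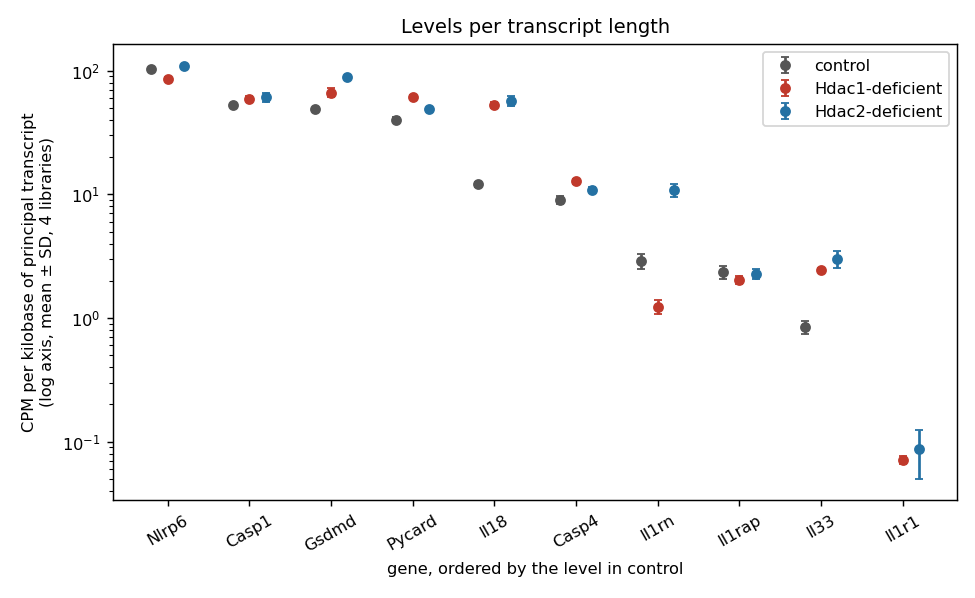
CPM per kilobase of principal transcript (log axis, mean ± SD of 4 libraries) for each member in the 3 groups, ordered by the level in control; Il1r1 in control is 0 and is not drawn. Il18 moves from 12.02 CPM per kb in control to 53.0 and 57.1 CPM per kb in the mutants, close to Casp1.

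Beside the 10 members, 63 other genes of the same pathways were followed by role, of which 44 were listed. Of 38 tested in Hdac1-deficient enteroids, 19 rose, 12 fell and 7 did not pass, with a median log2 fold change of 0.13. The 19 include Il18rap, which passed the filter on low counts there only with the mutant libraries. Of 38 tested in Hdac2-deficient enteroids, 21 rose, 8 fell and 9 did not pass, with a median of 0.24. With a fold change above 2, 5 passed upon Hdac1 deletion and 3 upon Hdac2 deletion, including Nlrp1b in both, Nlrp10 in the former and Gsdma2 in the latter, which passed the filter only through the group where they were high. These counts stand beside the shares of all tested genes given above.

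Of the other ligands and antagonists, Il1b and the interleukin-36 genes were not among the listed genes, and Il1a did not pass the filter. Il18bp, which encodes the soluble protein that binds interleukin-18 and keeps it from its receptor, was at 0.770, 0.633, 0.661 and 0.756 CPM in control. It was at 1.57, 1.39, 2.10 and 2.47 CPM in Hdac1-deficient and at 0.921, 0.898, 1.21 and 0.867 CPM in Hdac2-deficient libraries. It rose by 1.43 ± 0.21 on the log2 scale in Hdac1-deficient enteroids (edgeR adjusted p = 8.0e-06), and its change in Hdac2-deficient enteroids was 0.47 ± 0.22 (adjusted p = 0.074). The mutants differed by 0.96 ± 0.20 (adjusted p = 0.000365).

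Of 8 other receptor genes 3 were listed, and none passed a 2-fold change. Il18r1 and Il18rap encode the chains of the interleukin-18 receptor. Il18r1 rose by 0.66 ± 0.27 in Hdac2-deficient enteroids (edgeR adjusted p = 0.037). Il18rap was at 0.375 ± 0.078 CPM in control and 0.634 ± 0.113 CPM in Hdac1-deficient libraries (mean ± SD). In that comparison Il18rap passed the filter on low counts only with the mutant libraries, where it is high, so no fold or p is given. Il18r1 in Hdac1-deficient enteroids (0.12, adjusted p = 0.73) and Il18rap in Hdac2-deficient enteroids (0.44, adjusted p = 0.23) did not pass. Neither Il18r1 (adjusted p = 0.11) nor Il18rap (adjusted p = 0.38) differed between the mutants. Both were low, with at most 26 counts of Il18r1 and 23 of Il18rap in any library. The 14 signalling genes downstream of the receptors were all listed. In Hdac1-deficient enteroids 5 rose and 6 fell, and in Hdac2-deficient enteroids 6 rose and 5 fell. Peli2, which encodes a ubiquitin ligase of the Pellino family, was the only one past a 2-fold change. It was at 7.34, 8.30, 7.30 and 8.28 CPM in control, at 2.62, 3.24, 3.25 and 2.36 CPM in Hdac1-deficient and at 2.06, 1.52, 2.81 and 1.69 CPM in Hdac2-deficient libraries. It fell by 1.42 ± 0.11 and 1.95 ± 0.13 on the log2 scale (edgeR adjusted p = 6.6e-10 and 4.7e-11).

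Of 20 other inflammasome sensors and partners, 15 were tested. In Hdac1-deficient enteroids 9 rose and 4 fell, and in Hdac2-deficient enteroids 11 rose and 1 fell. Over all tested genes, 32.7% rose and 31.9% fell upon Hdac1 deletion, and 31.4% rose and 30.9% fell upon Hdac2 deletion. The counts of sensors and partners include Nlrp1b in both mutants and Nlrp10 in Hdac1-deficient enteroids. There these genes passed the filter only through the group where they were high. Nlrp3 and Nlrp1a were not among the listed genes. Nlrp1b, a sensor gene whose alleles vary among inbred mouse strains, had 1, 0, 2 and 0 counts in control. It had 116, 152, 144 and 110 counts in Hdac1-deficient and 211, 203, 209 and 215 counts in Hdac2-deficient libraries. Set against 3 counts in the shallowest control library, its mean level was at least 35.6-fold higher upon Hdac1 deletion and at least 69.6-fold higher upon Hdac2 deletion. Strain mixture and genotype cannot be told apart here.

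Aim2, which encodes a sensor of cytosolic DNA, was at 18.2 to 20.4 CPM in control libraries, 43.7 to 47.5 CPM upon Hdac1 deletion and 27.8 to 32.8 CPM upon Hdac2 deletion. It rose by 1.27 ± 0.05 and 0.69 ± 0.06 on the log2 scale (edgeR adjusted p = 2.0e-14 and 1.2e-09), and the mutants differed by 0.58 ± 0.05 (adjusted p = 3.4e-10). Nlrp10 had 12 to 22 counts in control, 3 to 7 counts in Hdac1-deficient and 19 to 39 counts in Hdac2-deficient libraries. Its counts in Hdac1-deficient libraries were all below those in the other groups, but it passed the filter in that comparison only through control, so no fold or p is given. Upon Hdac2 deletion it rose by 0.76 ± 0.25 on the log2 scale (edgeR adjusted p = 0.012). Naip1, Naip2, Naip5 and Naip6, which encode receptors for bacterial flagellin and secretion systems, rose in both mutants. They are related genes of 1 family, so how reads were shared among them is uncertain.

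Of 9 other gasdermins and pore partners, 5 were listed. Gsdma2 had 0 to 5 counts in control, 6 to 19 in Hdac1-deficient and 10 to 22 in Hdac2-deficient libraries. In the Hdac2 comparison it passed the filter on low counts only through the mutant libraries, where it is high, so no fold or p is given, and in the Hdac1 comparison it did not pass the filter.

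**Figure D4:**
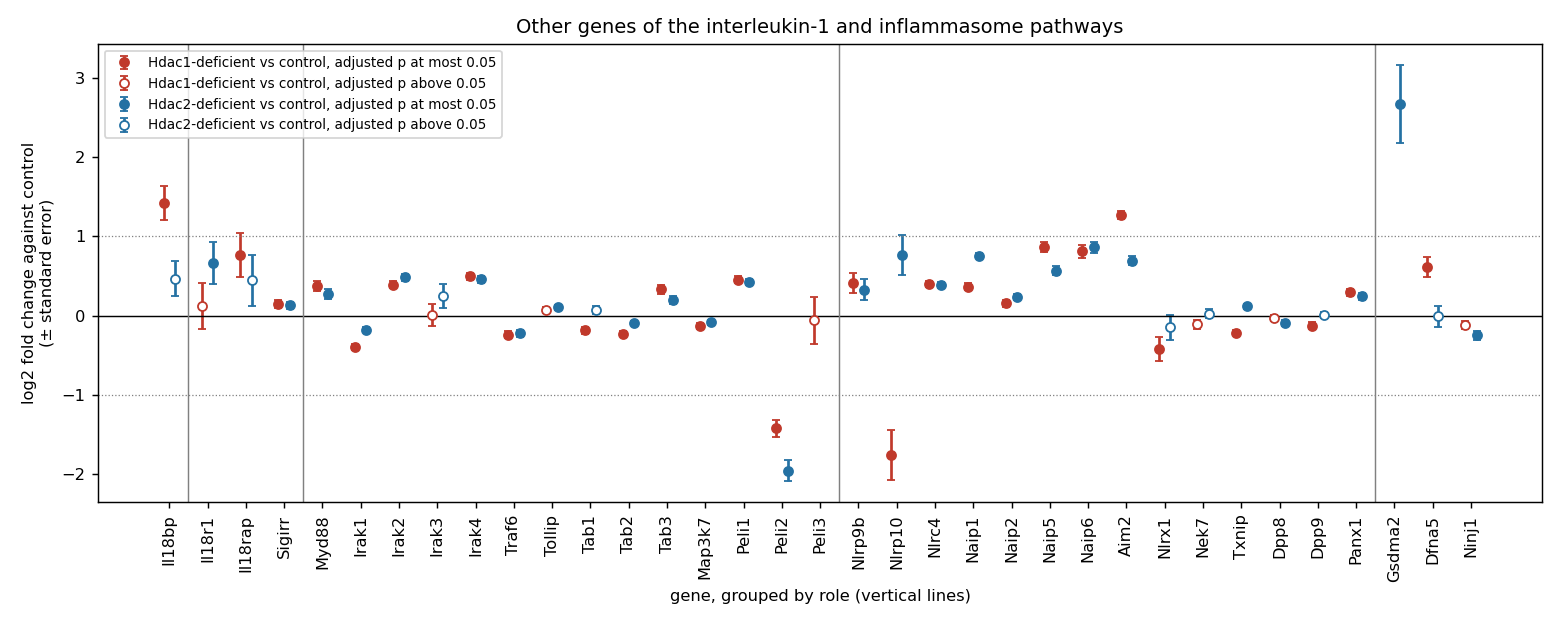
Log2 fold change against control (± standard error) of the other pathway genes tested, apart from caspases, in Hdac1-deficient and Hdac2-deficient enteroids; filled points passed an adjusted p of 0.05 and dotted lines mark a 2-fold change. Most points lie inside the 2-fold lines, Peli2 is below them in both mutants, and Nlrp1b, with at most 2 counts per control library, is not drawn. The points of Nlrp10 and Il18rap in Hdac1-deficient and of Gsdma2 in Hdac2-deficient enteroids are drawn but not to be read as calls. There these genes passed the filter on low counts only with the group where they were high.

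Cell type markers also differed between the groups. The summed level of 9 enterocyte markers was 9174 to 9807 CPM in control libraries, 18101 to 20587 CPM upon Hdac1 deletion and 14361 to 16155 CPM upon Hdac2 deletion. All 9 rose in both mutants. The summed level of 5 stem cell markers was 3552 to 3764, 2010 to 2343 and 1682 to 1874 CPM in the same order. The 7 goblet cell markers summed to 1890 to 2110, 1938 to 2078 and 2996 to 3224 CPM. The Hdac2-deficient libraries stood above the others, and the Hdac1-deficient libraries overlapped control. All 7 rose in Hdac2-deficient enteroids, while 3 rose and 2 fell in Hdac1-deficient enteroids. The 6 Paneth cell markers summed to 2121 to 2482, 3105 to 3368 and 3383 to 3530 CPM. Of these, 5 rose in Hdac2-deficient enteroids, but in Hdac1-deficient enteroids 2 rose (Lyz1 and Itln1), Ang4 fell and 3 did not pass, with a median log2 fold change of 0.02. The 6 enteroendocrine markers summed to 213.6 to 227, 255 to 288 and 261 to 285 CPM. The 4 tuft cell markers listed summed to 5.49 to 6.47, 5.60 to 7.81 and 3.69 to 4.73 CPM, lowest in the Hdac2-deficient libraries. The leukocyte list summed to 2.18 to 2.95, 3.40 to 4.54 and 4.34 to 5.59 CPM, led by Itgam and Cd68, with Ptprc at no more than 4 counts in any library. Mesenchymal and endothelial markers, of which 3 of 8 were listed, stayed below 0.6 CPM in sum. The part of cell composition in the changes of Il18, Il1rn and the other members was not tested, and in bulk RNA fewer cells of a type and less RNA per cell cannot be told apart.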

How the data were processed

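RNA-Seq gene counts of 12 libraries, 4 each of control, Hdac1-deficient and Hdac2-deficient enteroids, were grouped by genotype as labelled. The authors selected poly(A) RNA, made directional libraries, sequenced paired ends on a HiSeq4000 and aligned them to GRCm38 with STAR (2.4.0f1 in the submitters' processing notes). The program, annotation and strand setting used for counting are not given in the sources used here. The authors deposited whole-number counts per gene, without normalization, in 1 table per mutant with the same control libraries, and genes with a summed count below 10 are not listed. The deposited tables also hold a normalized score per library, log2 fold changes and log2 CPM, and p-values of the authors' own comparisons, none of which were used.

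Counts were tested with edgeR 4.0.16 in R 4.3.3 (quasi-likelihood F test, robust, TMM normalization, filterByExpr) with Benjamini-Hochberg adjustment over 14246 genes (Hdac1), 14007 genes (Hdac2) and 14510 genes (both mutants compared, in 1 fit of all 12 libraries). "Rose" and "fell" mean an adjusted p of at most 0.05. The SE is the log2 fold change divided by the square root of F. A lower bound on a fold uses 3 counts in the shallowest control library and covers counting error only. Libraries held 20693200 to 30658628 counts. The common biological coefficient of variation was 0.0384 to 0.0425.

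Positions and lengths came from GENCODE M21, promoters from RefSeq, which matched 9 of 10 members. Named were the 10 members, up to 3 genes per role past a 2-fold change in either mutant, and the 3 genes most correlated with each of the 3 members that differed most between mutants. Other pathway genes, such as Il18r1 or Naip1, were named after their values were seen. Members, gene lists and cell markers were chosen with earlier results of these data known. Some list genes are counted but not reported singly here. Alternatives were DESeq2 1.42.0, RLE factors, library size alone, no filter, no fold limit, the replicate number as a block, and each library left out.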

Additional observations from a re-analysis of the deposited data

Results flagged for a closer look

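In groups of 4 libraries, 3 of 29 tested had 1 library set apart from the others, where chance gives about 1 in 20. The gap to the nearest library, as a share of the range of the group, was 0.926 for Il1rap in Hdac1-deficient library 1 (10.2 CPM), 0.838 for Casp1 in Hdac2-deficient library 1 (101 CPM) and 0.858 for Casp4 in Hdac2-deficient library 2 (16.7 CPM). These were 2 different libraries of the Hdac2-deficient group and 1 of the Hdac1-deficient group.

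The change against control differed between the mutants for 6 members in the edgeR test of the difference itself. On the log2 scale, Hdac1-deficient minus Hdac2-deficient, it was -3.13 for Il1rn, -0.43 for Gsdmd, -0.35 for Nlrp6, -0.28 for Il33, 0.33 for Pycard and 0.22 for Casp4. Il1rn and Nlrp6 were below every control library in Hdac1-deficient and above every control library in Hdac2-deficient enteroids.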

How the results depend on the processing

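The number of members past both limits, Il1r1 included, was 4, 3 and 1 (Hdac1-deficient and Hdac2-deficient against control, and the mutants compared), and 10, 8 and 6 with no fold limit. Over all genes the counts with no fold limit were 9196, 8729 and 6665, and with no filter on low counts 2335 for Hdac1 and 1792 for Hdac2 instead of 1507 and 1162. DESeq2 was also run without that filter, and with it 2082 genes passed both limits for Hdac1. For the other pathway genes, the 5 past both limits for Hdac1 became 9 with DESeq2 or with no filter and 31 with no fold limit. The 3 for Hdac2 became 29 with no fold limit. The 1 between the mutants became 2 with DESeq2 or no filter, 19 with no fold limit, and 1 to 2 with a library left out. The cause was not tested. With a library left out, the log2 fold change of Il1rap in Hdac2-deficient enteroids ranged from -0.11 to 0.0063 and changed sign without control library 2 (0.0063) or 3 (0.0043). The Casp1 difference between the mutants ranged from -0.058 to 0.026 and changed sign without Hdac2-deficient library 1 (0.026). None of these values passed. Same-numbered libraries of different groups did not deviate together (r from -0.045 to 0.091 over 12 pairs). The range was -0.091 to 0.127 over 36 pairs of different numbers. Whether same-numbered libraries were handled together is not stated, and these correlations cannot decide it. With the replicate number as a block, 4, 3 and 1 members and 1501, 1158 and 812 genes passed both limits. Depth limits Il1r1 and Nlrp1b in control, which are given as bounds.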
